A study of Mus musculus with 8 samples.

Results

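The TFEB family of transcription factors and a list of lysosomal genes were examined in LT-HSCs (blood stem cells able to repopulate a recipient over the long term) of *IκBα* (*Nfkbia*) WT, HET and KO embryos. Which of these genes the family controls in these cells was not tested. The set was a list of 38 named genes. They were chosen by symbol and not by a rule on their values, but with earlier results of these data known. All 38 were found among the 55487 genes of the count table and passed the filter of at least 10 reads over the 8 libraries, as 20610 genes did. The set held 3 transcription factors, 6 membrane and cholesterol export proteins, 5 subunits of the membrane part (V0) and 8 of the cytoplasmic part (V1) of the vacuolar proton pump (V-ATPase), 11 cathepsins, and 5 further hydrolases or hydrolase activators. Bulk RNA-seq libraries were made from 500 cells each, sorted as LSK CD48- CD150+ from fetal liver at E14.5, for 3 WT, 3 HET and 2 KO embryos. The KO embryos carried a targeted *Nfkbia* allele in every cell and HET embryos carried it on a single chromosome, so the stem cells were not the only cells affected. Of the 8 embryos, 3 were male (WT1, WT2, HET1) and 5 were female (KO1, KO2, WT3, HET2, HET3). The labels give total RNA for the 3 male libraries and polyA RNA for the 5 female libraries, under the same protocol text, so sex and this label cannot be told apart. The series describes the libraries as independent biological replicates.

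The lysosome is the acidic compartment in which cells break down proteins, lipids and sugars. TFEB, TFE3 and MITF are related basic helix-loop-helix leucine zipper proteins that bind the palindrome CACGTG (an E-box) and its extended form, the CLEAR element, in the promoters of lysosomal genes. When nutrients are present, the kinase complex mTORC1 phosphorylates TFEB at the lysosomal surface and holds it in the cytoplasm, and on starvation or lysosomal stress it enters the nucleus. The V-ATPase pumps protons into the lysosome, the cathepsins are its proteases, and the channel MCOLN1 lets calcium out of it. In adult blood-forming tissue, lysosomal activity has been linked to the quiescence of stem cells.

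Before the results, the libraries themselves were compared. Between 17895973 and 21720972 reads per library were counted on genes, so that 3 reads, taken as the smallest countable level, correspond to 0.125 to 0.178 CPM (read counts scaled for library size with TMM factors). The deleted gene *Nfkbia* was at 23.4 to 67.7 CPM in WT, 14.4 to 29.0 CPM in HET, 0.0489 CPM in KO1 and 0 in KO2. The labelled cell type was checked against 6 LT-HSC markers (*Kit*, *Ly6a*, *Slamf1*, *Procr*, *Mecom*, *Hlf*). Their summed level was 994 and 1046 CPM in WT1 and WT2 and 850 and 633 CPM in KO1 and KO2, but 353 and 352 CPM in HET1 and HET2 and 207 and 189 CPM in WT3 and HET3. In HET3, *Ly6a* was at 0 and *Procr*, *Mecom* and *Hlf* were at 1.13, 1.36 and 3.03 CPM. WT3 and HET3 therefore went against their label on the summed level, and HET3 on *Ly6a*, *Procr*, *Mecom* and *Hlf*. *Kit* and *Slamf1* made up most of the sum in HET3. The KO and HET fits are also given without WT3 and HET3. Erythroid markers (8 genes) summed to 674 to 2658 CPM in WT, 3097 to 9136 CPM in HET and 622 to 2473 CPM in KO. Hepatocyte markers (6 genes) summed to 8.11 to 1165 CPM in WT, 79.6 to 565 CPM in HET and 6.41 to 216 CPM in KO, with *Serpina1a* at 0 in a KO library. Macrophage markers (12 genes) summed to 43.0 to 340 CPM in WT, 40.6 to 170 CPM in HET and 14.6 CPM in KO1, with KO2 inside the HET range. Megakaryocyte markers (5 genes) summed to 61.5 to 1258 CPM in WT, 23.3 to 429 CPM in HET and 107 to 1009 CPM in KO. Neutrophil markers (9 genes) summed to 145 to 919, 119 to 594 and 150 to 559 CPM. Endothelial markers (5 genes) summed to 10.9 to 80.3, 4.27 to 29.8 and 42.3 to 66.5 CPM. Mast cell and basophil markers (6 genes) summed to 1.67 to 1.96 CPM in WT, 0.534 to 3.56 CPM in HET and 2.79 to 4.03 CPM in KO, where *Mcpt8* and *Ms4a2* had 0 reads in a KO library, as did *Ctsg*, *Ngp* and *Camp* of the neutrophil list. In KO against WT/HET, described below, 6 of 6 LT-HSC markers were higher at an unadjusted *p*-value under 0.05, against 15.7% of all genes. Their log2 fold changes ran from 0.51 (*Kit*) to 2.86 (*Ly6a*). Without WT3 and HET3, 0 of 6 passed (4.07% of all genes), with log2 fold changes from 0.45 (*Kit*) to 1.69 (*Ly6a*). Without sex in the model, 1 of 6 passed (*Kit*), against 1.08% of all genes. Against WT1 and WT2, 3 of 6 were lower and 0 higher, against 1.98% and 1.43% of all genes. At the same threshold in the fit with all libraries, *Gp9* and *Ppbp* (megakaryocyte), *Ltf* (neutrophil), *Cpa3* (mast cell) and *Pecam1* (endothelium) were higher and *Ctsg* (neutrophil) was lower, with adjusted *p*-values of 0.152 to 0.193 over these and the LT-HSC markers. The part of these other cells in the results was not tested, and in bulk libraries fewer cells of a type and less RNA per cell cannot be told apart.

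Over all 38 genes the sum was between 4317 and 5294 CPM, a ratio of 1.23 between the highest and the lowest library. KO1 and KO2 held the lowest sums, 4317 and 4407 CPM, against 4678 to 5294 CPM in the 6 WT and HET libraries, but with scaling by library size only, without TMM factors, they overlapped (4931 and 4495 against 4332 to 5636). The V0 subunits summed to 574 and 556 CPM in KO, below 605 to 751 CPM in WT and HET. The V1 subunits summed to 1243 CPM in both KO libraries, below 1268 to 1640 CPM in the others. Both parts of the proton pump were therefore at their lowest in the KO libraries, with no overlap between the groups on this scale. With scaling by library size only, the KO sums overlapped the others for V0 (655 and 567 against 586 to 726) and for V1 (1419 and 1268 against 1329 to 1490). The cathepsins overlapped, at 1207 and 1336 CPM in KO against 1312 to 1748 CPM in WT and HET. The membrane proteins also overlapped, at 806 and 799 CPM in KO against 770 to 941 CPM. Among the other hydrolases the KO sums of 460 and 445 CPM lay inside the range of 349 to 511 CPM. The transcription factors went the other way, with 27.2 and 29.4 CPM in KO and 18.4 to 26.0 CPM in WT and HET, and with scaling by library size only they were above the others as well (31.1 and 29.9 against 17.8 to 26.9). These sums are descriptions of the libraries and carry no test.

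**Figure D1:**
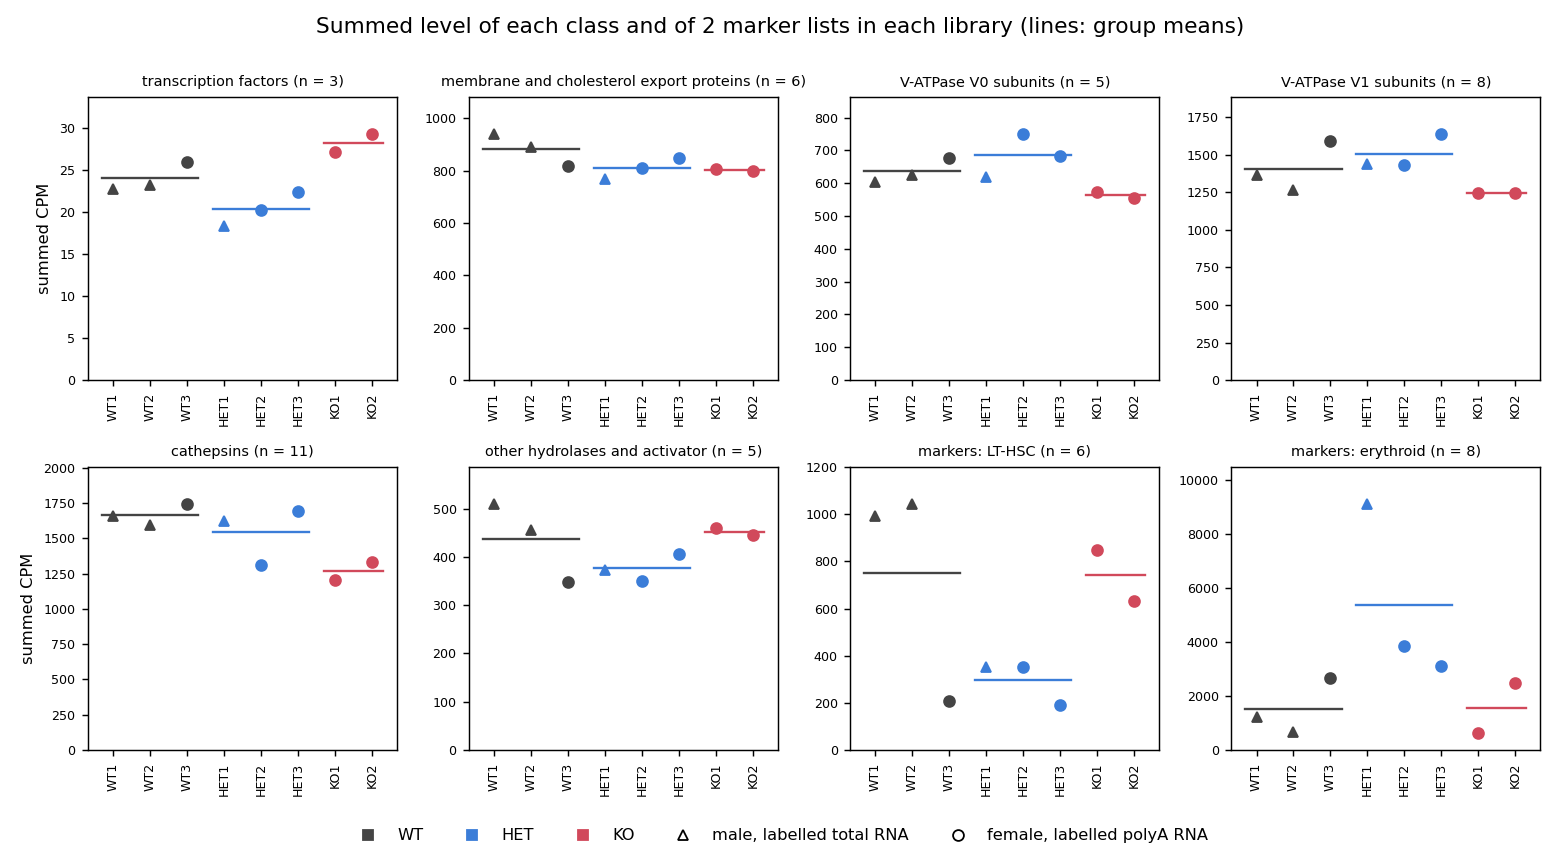
Summed CPM of each class of genes (y axes) in the 8 libraries (x axes), with LT-HSC and erythroid marker sums in the last panels; each point is a library, triangles are male and circles female, and the lines are group means. The 2 KO libraries sit below all 6 WT and HET libraries for the V0 and V1 subunits (on the TMM scale, not with scaling by library size only) and above them for the transcription factors, while LT-HSC markers are lowest in WT3 and HET3.

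In KO against WT/HET, with sex in the model as in the methods of the study, 0 of the 38 genes passed the test (edgeR, adjusted *p*-value under 0.05 and absolute log2 fold change over 1), as 0.0% of all 20610 genes did. At an unadjusted *p*-value under 0.05, 15 of the 38 genes differed, against 25.2% of all genes. Of these, 6 were higher in KO, against 15.7% of all genes, and 9 were lower, against 9.48%. The 6 higher genes were *Tfeb*, *Mcoln1*, *Cd63*, *Ctsf*, *Ctso* and *Hexa*. The 9 lower genes were *Lamp1*, *Ctsb*, *Ctsz* and 6 subunits of the proton pump. The median log2 fold change was -0.036 over the 38 genes and 0.13 over all genes tested. It was -0.29 over the 13 V-ATPase subunits, of which 11 were below 0, and 0.75, 0.47, -0.074 and 0.15 over the transcription factors, membrane proteins, cathepsins and other hydrolases. DESeq2 with shrinkage by apeglm, the tools of the study, called 2 genes higher, *Ctsf* and *Ctso*, and none lower, against 6.5% and 0.597% of all genes (7.1% in either direction).

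Because both KO libraries were female, the KO term was set by the comparison with WT3, HET2 and HET3, and the male libraries entered only through sex and the spread. Without WT3 and HET3, HET2 is the single female reference library, so the KO values below given without them are those of KO1 and KO2 against HET2, with the spread taken from the other libraries. In that fit, 2 of the 38 genes had an unadjusted *p*-value under 0.05, *Tfeb* (higher) and *Atp6v0e* (lower), against 5.09% of all genes, and HET2 held the lowest *Tfeb* and the highest *Atp6v0e* of all libraries. Without sex in the model 0 of the 38 did, against 2.0% of all genes, and the lowest adjusted *p*-value over all genes was 0.205. Against WT1 and WT2 alone, 2 of the 38 did, *Ctsc* and *Ctsh*, both lower in KO, against 3.41% of all genes. WT1 and WT2 had LT-HSC marker sums nearest to those of KO, but they are male and labelled total RNA. The KO libraries are female and labelled polyA RNA. In every value given against WT1 and WT2, genotype therefore cannot be told apart from sex and this label. Within the female libraries, 5 genes were higher and 10 lower at that threshold and 0 were called (edgeR), against 12.7%, 12.3% and 0.0% of all genes, and DESeq2 called 4, against 9.11% of all genes. Both KO libraries were above WT3, HET2 and HET3 for 10 of the 38 genes and below them for 11, against 27.1% and 21.4% of all genes. In these libraries without WT3 and HET3, 2 genes were higher and 0 lower, and 3.95% of all genes passed. WT1, WT2, KO1 and KO2 all lay above the other 4 libraries for 10 of the 38 genes and below them for 9, against 16.0% and 13.8% of all genes. The same 4 libraries had the highest LT-HSC marker sums, as the heat map ordered by these markers shows, and what share of the gene differences goes with the markers was not tested.

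**Figure D2:**
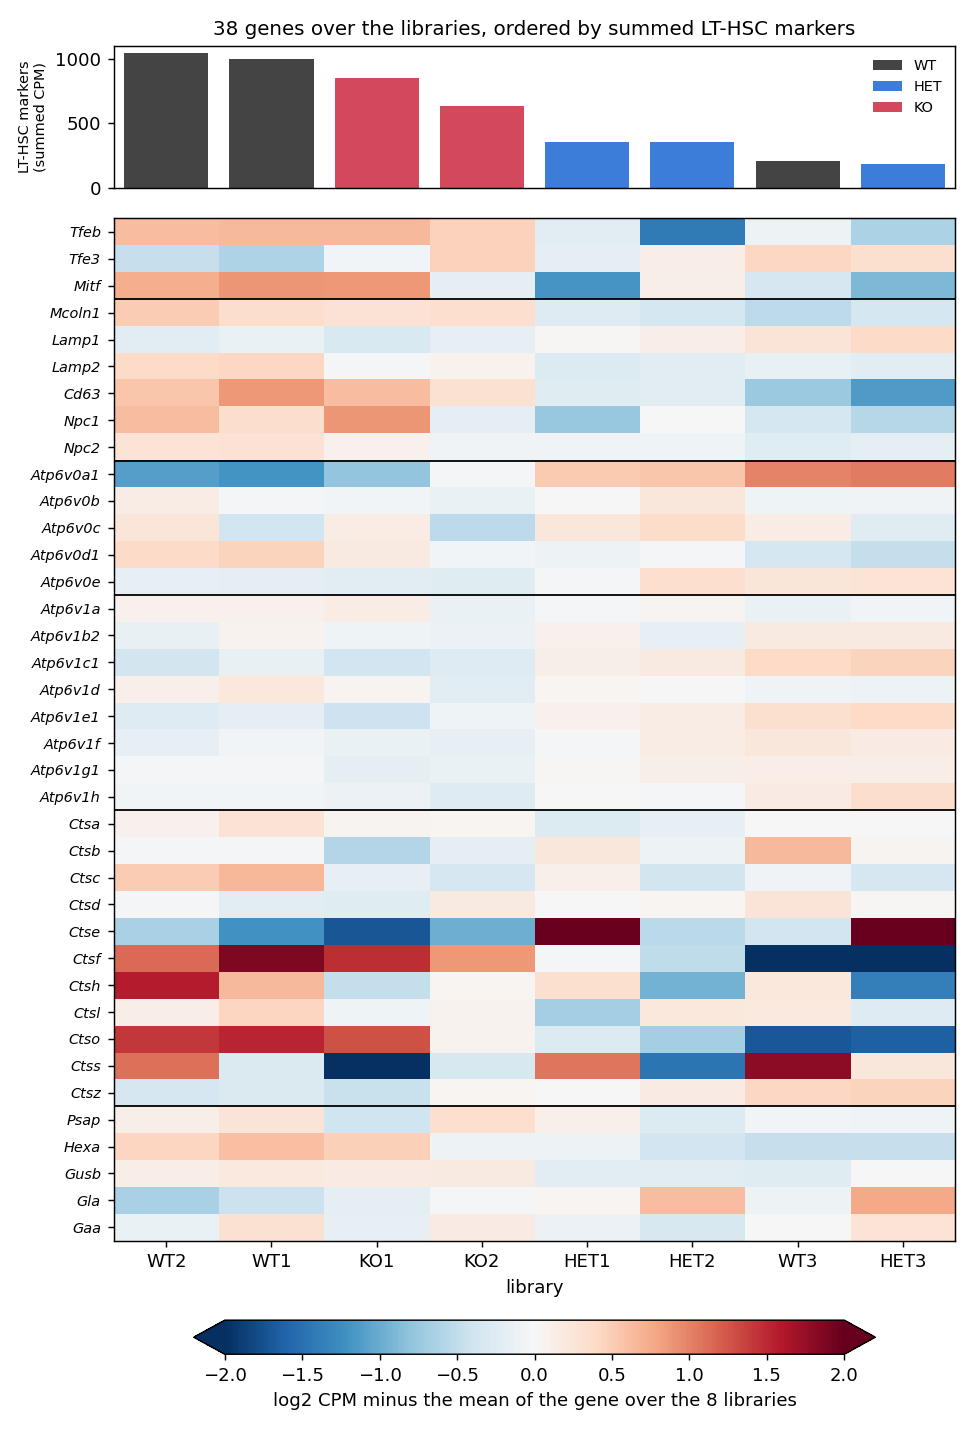
Levels of the 38 genes (rows, grouped by class) in the 8 libraries (columns), as log2 CPM minus the gene's mean over the libraries, with libraries ordered by the summed CPM of 6 LT-HSC markers (bars, grey WT, blue HET, red KO). WT1, WT2, KO1 and KO2 share a side for genes such as *Ctsf*, *Ctso*, *Cd63* and *Atp6v0a1*, and *Ctse* stands out in HET1 and HET3.

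Among the transcription factors, *Tfeb* (ENSMUSG00000023990, GRCm38 chr17:47737030-47792419, plus strand) was at 8.84, 8.61 and 5.26 CPM in WT1 to WT3, at 4.84, 2.12 and 3.62 CPM in HET1 to HET3, and at 8.86 and 7.77 CPM in KO1 and KO2. Both KO libraries were above WT3 and all HET libraries but overlapped WT1 and WT2, and all HET libraries were below all WT libraries on the TMM scale, whereas HET1 and WT3 overlapped with scaling by library size only (4.69 and 4.65). The log2 fold change in KO against WT/HET was 1.18 ± 0.47 (SE, 2 against 6 libraries), with an unadjusted *p*-value of 0.0348 and an adjusted *p*-value of 0.175, between 0.0799 and 0.988 over the alternatives. It was 1.94 against HET2 alone, the library with the lowest *Tfeb* (without WT3 and HET3), 0.58 without sex in the model, and -0.070 against WT1 and WT2. An exact two-sided permutation test over the libraries, which takes no account of sex, gave 0.286 for *Tfeb*, where 0.0714 is the smallest value that 2 against 6 libraries allow.

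*Tfe3*, the family member on the X chromosome, was at 9.13, 10.2 and 18.7 CPM in WT, 12.4, 15.3 and 17.4 CPM in HET, and 13.5 and 19.3 CPM in KO. The 3 male libraries were the lowest of the 6 WT and HET libraries, and KO overlapped both groups. Its log2 fold change in KO was -0.066 ± 0.27, and in male against female libraries it was -0.70 ± 0.24 (unadjusted *p*-value 0.0206, adjusted 0.103). *Mitf*, best known from pigment cells, mast cells and osteoclasts, was at 4.87, 4.39 and 2.08 CPM in WT, 1.17, 2.88 and 1.42 CPM in HET, and 4.84 and 2.31 CPM in KO, all groups overlapping (log2 fold change 0.75 ± 0.69). Per kilobase of exon, *Tfe3* was the first or second of the family in every library, at 0.985 to 2.08 CPM per kb, and *Tfeb* was at 0.374 to 1.56 and *Mitf* at 0.189 to 0.786. The share of *Tfeb* in the summed level per kilobase of the family ran from 15.0% to 46.8%, and *Tfeb* was above *Tfe3* in some libraries and below *Mitf* in HET2, so the order was not fixed.

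The promoters of the set were searched for the sites of these factors. RefSeq promoter windows of GRCm38.p6, 250 bases before to 50 bases after each start, were found for 30 of the 38 genes (39 windows). CACGTG, which reads the same on both strands, lay in 12 of these 39 windows (30.8%) and in 7.15% of all 32851 windows. Its extension TCACGTGA, which contains CACGTG, lay in 7 windows (17.9%) and in 0.974% of all windows. The complete CLEAR palindrome of 10 bases, which contains both, was in 0 windows of the set and in 0.326% of all. The 12 genes were *Mcoln1*, *Lamp1*, *Atp6v0b*, *Atp6v0d1*, *Atp6v0e*, *Atp6v1a*, *Ctsa*, *Ctsd*, *Ctsf*, *Ctsl*, *Gla* and *Gaa*, and the windows of *Tfeb*, *Tfe3* and *Mitf* held none. Each sequence below is 30 bases long, on the strand of its gene, with the motif in capitals and the distance from the first base of CACGTG to the start. They show the extended site in the calcium channel, in subunits of the pump and in enzymes, and the plain E-box in *Lamp1* and *Ctsf*, genes with the values described next.
*Mcoln1*, chr8:3500462-3500491, plus strand, 45 bases before the start: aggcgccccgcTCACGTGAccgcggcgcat
*Atp6v0d1*, chr8:105566050-105566079, minus strand, 3 bases before the start: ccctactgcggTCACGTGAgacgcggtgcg
*Atp6v0e*, chr17:26676387-26676416, plus strand, at base 4 after the start: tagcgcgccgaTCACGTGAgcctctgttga
*Atp6v1a*, chr16:44139373-44139402, minus strand, 131 bases before the start: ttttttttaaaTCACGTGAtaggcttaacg
*Ctsa*, chr2:164833749-164833778, plus strand, 12 bases before the start: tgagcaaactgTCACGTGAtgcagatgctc
*Ctsd*, chr7:142387908-142387937, minus strand, 98 bases before the start: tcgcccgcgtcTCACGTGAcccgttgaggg
*Gla*, chrX:134601182-134601211, minus strand, 194 bases before the start: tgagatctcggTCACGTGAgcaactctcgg
*Lamp1*, chr8:13159088-13159117, plus strand, 61 bases before the start: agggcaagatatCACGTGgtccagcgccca
*Ctsf*, chr19:4855074-4855103, plus strand, 79 bases before the start: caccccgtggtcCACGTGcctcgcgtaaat

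A second TCACGTGA lay in the windows of *Ctsa* and *Gla*, and *Lamp1* held CACGTG at 4 places, 61, 45, 28 and 15 bases before its start. The genes with the motif did not share a direction in KO. Of the 12 with CACGTG, 6 had a log2 fold change above 0 and 6 below 0 (median -0.034, from -0.57 to 2.68). At an unadjusted *p*-value under 0.05, 2 were higher and 2 lower, against 15.7% and 9.48% of all genes. Of the 7 with TCACGTGA, 4 were above 0 and 3 below (median 0.059), with 1 higher and 1 lower at that threshold. Of the 18 with a window but no CACGTG, 10 were above 0 and 8 below (median 0.077), with 4 higher and 4 lower. A match is a description of the window and not a bound site.

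Of the membrane proteins, *Mcoln1* (ENSMUSG00000004567, chr8:3500457-3515232, plus strand), the calcium channel of the lysosome, was at 31.7, 35.6 and 17.4 CPM in WT, 20.8, 19.6 and 19.6 CPM in HET, and 30.5 and 31.7 CPM in KO. KO was at the level of WT1 and WT2 and above the other 4 libraries. The log2 fold change was 0.72 ± 0.25 (unadjusted *p*-value 0.0195, adjusted 0.156), and it was 0.64 without WT3 and HET3 and -0.12 against WT1 and WT2. *Cd63*, a tetraspanin of lysosomes and secretory granules, also had KO1, KO2, WT1 and WT2 above the other 4 libraries, at 145, 116 and 47.4 CPM in WT, 67.4, 68.2 and 36.2 CPM in HET, and 122 and 98.3 CPM in KO. Its log2 fold change was 1.12 ± 0.35 (unadjusted *p*-value 0.0112, adjusted 0.152), 0.66 without WT3 and HET3 and -0.24 against WT1 and WT2. *Lamp1*, a major glycoprotein of the lysosomal membrane, was opposite, at 364, 343 and 478 CPM in WT, 406, 437 and 521 CPM in HET, and 323 and 356 CPM in KO. KO1 was the lowest library and KO2 lay between WT2 and WT1 (log2 fold change -0.50 ± 0.16, unadjusted *p*-value 0.0124, adjusted 0.152, -0.40 without WT3 and HET3 and -0.061 against WT1 and WT2). *Lamp2*, *Npc1* and *Npc2*, of which the NPC proteins move cholesterol out of the lysosome, had log2 fold changes of 0.21, 0.73 and 0.18 with adjusted *p*-values of 0.35 to 0.536. Per kilobase *Lamp1* led its class in every library, with 57.7% to 79.1% of the summed level.

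Of the 13 V-ATPase subunits, 6 were lower in KO at an unadjusted *p*-value under 0.05 (2 of V0 and 4 of V1) and 0 were higher, against 9.48% and 15.7% of all genes, with edgeR adjusted *p*-values from 0.148 upward. DESeq2, by its adjusted *p*-value under 0.05 at any fold change, had 5 of the 13 lower (*Atp6v0e*, *Atp6v1c1*, *Atp6v1e1*, *Atp6v1f* and *Atp6v1g1*) and 0 higher, against 4.67% and 8.33% of all genes, and over the 38 genes it had 6 lower and 3 higher. In edgeR, only *Atp6v0e* was lower without WT3 and HET3 (1.02% of all genes), only *Atp6v1c1* with scaling by library size only (4.64% of all genes), where *Atp6v0d1* was higher. No subunit, 0 of 13, was lower without sex in the model (0.922% of all genes) or against WT1 and WT2 (1.98% of all genes). Scaling by library size only moved the median of all genes from 0.13 to 0.41 and the medians of V0 and V1 from -0.26 and -0.31 to 0.036 and -0.024. *Atp6v0e* (ENSMUSG00000015575, chr17:26663231-26699647, plus strand), a small V0 subunit, was at 284, 287 and 379 CPM in WT, 313, 406 and 388 CPM in HET, and 275 and 271 CPM in KO. Both KO libraries were below all 6 others, by a margin over WT1 that was small beside the spread of the reference. The log2 fold change was -0.52 ± 0.14 (unadjusted *p*-value 0.00474, adjusted 0.148), -0.60 against HET2 alone, the library with the highest *Atp6v0e* (without WT3 and HET3), -0.33 without sex in the model and -0.065 against WT1 and WT2. *Atp6v1g1*, at 94.2, 94.5 and 107 CPM in WT, 98.2, 105 and 106 CPM in HET, and 85.4 and 88.4 CPM in KO, was also below all 6 (log2 fold change -0.29 ± 0.13, unadjusted *p*-value 0.0533). *Atp6v1h*, a regulatory V1 subunit, was at 174, 173 and 203 CPM in WT, 181, 176 and 231 CPM in HET, and 166 and 151 CPM in KO, again with no overlap (log2 fold change -0.36 ± 0.16, unadjusted *p*-value 0.0498, -0.18 without WT3 and HET3 and -0.13 against WT1 and WT2). Including *Ctsb*, 4 of the 38 genes had both KO libraries below all 6 others and 0 had both above, against 1.79% and 3.05% of all genes. With scaling by library size only, these 4 overlapped the other libraries, *Lamp1* and *Atp6v1c1* were the genes with both KO libraries below (1.19% of all genes), and 0 had both above (3.89%).

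The other lower subunits overlapped WT1 or WT2. *Atp6v1c1*, which joins V1 to V0 as a stalk subunit, was at 158, 136 and 231 CPM in WT, 189, 198 and 239 CPM in HET, and 135 and 147 CPM in KO (log2 fold change -0.66 ± 0.18, unadjusted *p*-value 0.00584, -0.53 without WT3 and HET3 and -0.061 against WT1 and WT2). *Atp6v1e1* and *Atp6v1f* had log2 fold changes of -0.52 ± 0.18 and -0.32 ± 0.13 (unadjusted *p*-values 0.0182 and 0.0362), which were -0.41 and -0.33 without WT3 and HET3 and -0.017 and -0.038 against WT1 and WT2. The widest range was that of *Atp6v0a1* (ENSMUSG00000019302, chr11:101009452-101063719, plus strand), the V0 isoform that carries the proton path, at 12.6, 13.5 and 57.8 CPM in WT, 41.8, 42.8 and 59.9 CPM in HET, and 16.7 and 28.6 CPM in KO. WT1, WT2 and both KO libraries were at the low end, and WT3 and HET3 were at the high end. Its log2 fold change was -1.24 ± 0.54 in KO (unadjusted *p*-value 0.0497, adjusted 0.198), -0.94 without WT3 and HET3, and turned to 0.79 against WT1 and WT2. *Atp6v0b*, *Atp6v0d1*, *Atp6v1a*, *Atp6v1b2* and *Atp6v1d* had log2 fold changes between -0.18 and 0.34 with unadjusted *p*-values above 0.14. The remaining V-ATPase gene, *Atp6v0c*, which encodes the ring through which protons pass, was at only 0.984 to 1.82 CPM, while its processed pseudogene *Atp6v0c-ps2* was at 19.5 to 24.3 CPM. Only uniquely mapped reads were counted, so reads that fit both copies are missing and the level of *Atp6v0c* is uncertain. Per kilobase *Atp6v1f* was the first and *Atp6v1g1* the second of the V1 genes in every library, with 32.9% to 35.5% and 18.1% to 20.2% of the summed level. Of the 13 genes only *Atp6v0a1* had a ratio between its highest and lowest library over 2, as 8 of the 11 cathepsins did.

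**Figure D3:**
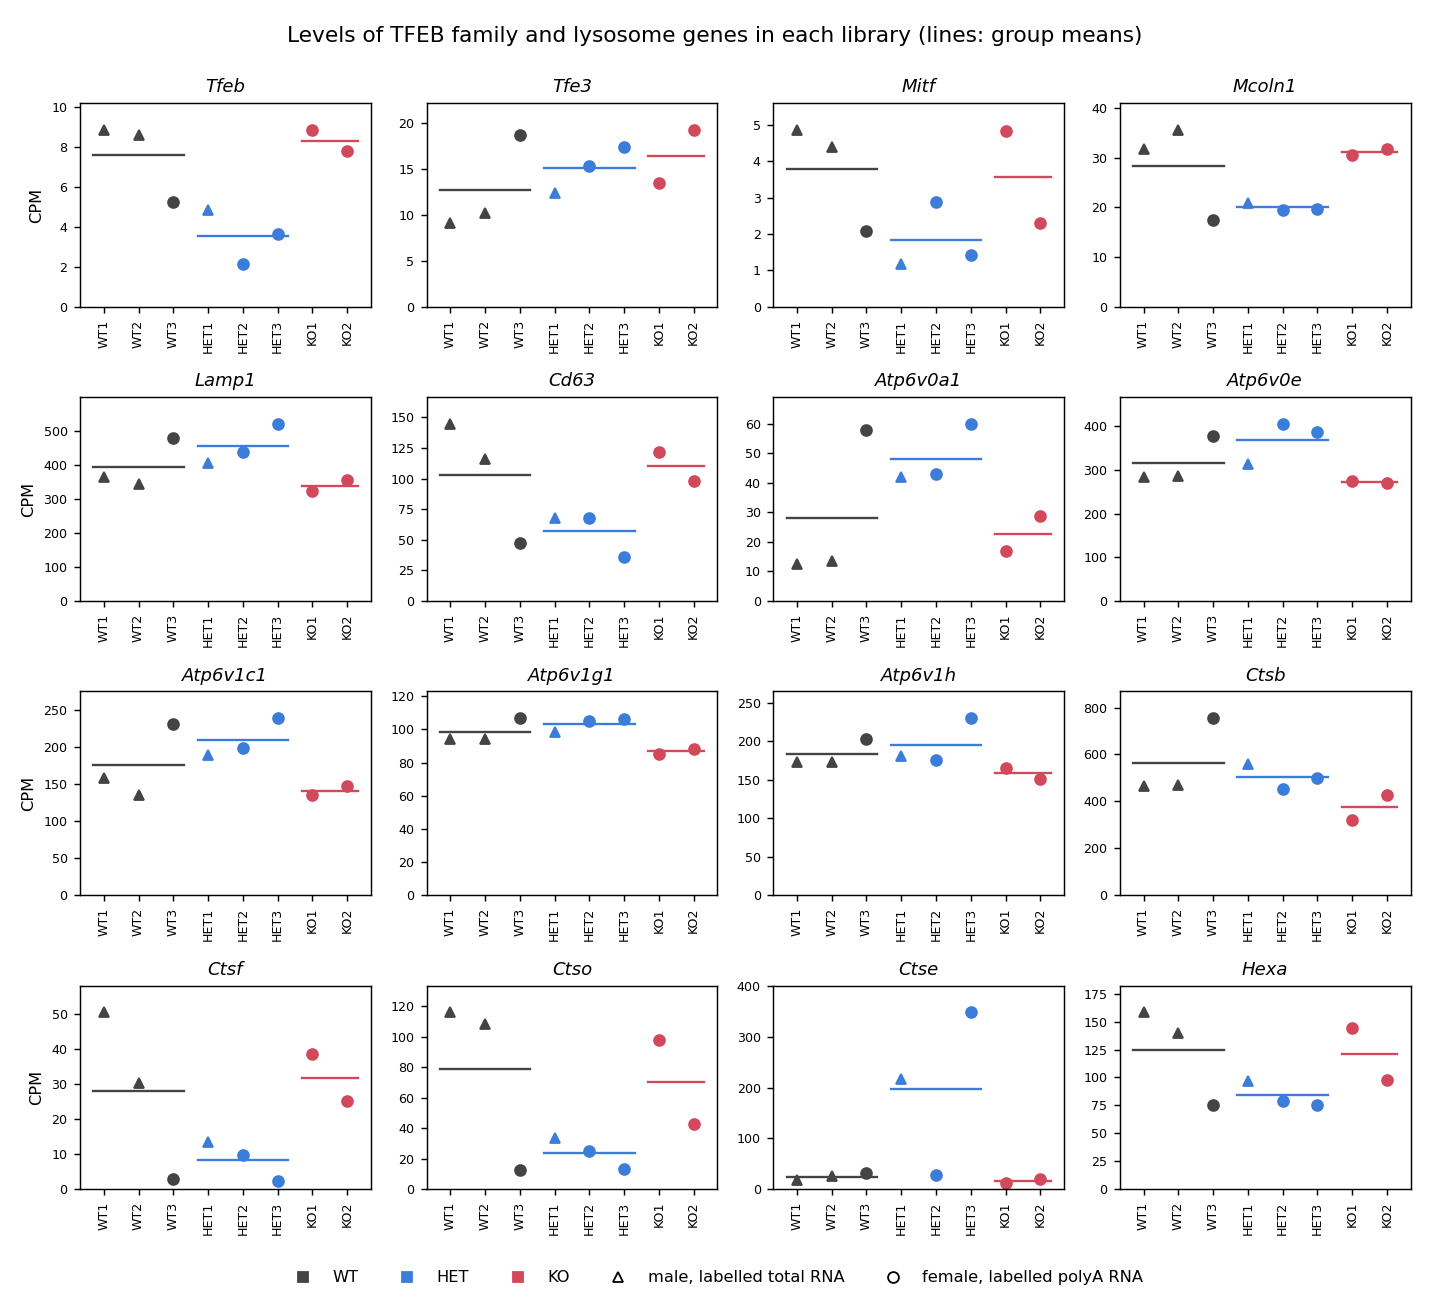
Level in CPM (y axes, from 0) of 16 of the genes in the 8 libraries (x axes); triangles are male and circles female libraries, and the lines are group means. *Atp6v0e*, *Atp6v1g1*, *Atp6v1h* and *Ctsb* have both KO points below all 6 WT and HET points on this TMM scale, not with scaling by library size only, whereas *Tfeb*, *Mcoln1*, *Cd63*, *Ctsf*, *Ctso* and *Hexa* have both KO points above WT3 and all HET points, with KO2 nearer to HET1 than to WT1 and WT2 for *Ctso* and *Hexa*.

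The cathepsins held the largest fold changes of the set in both directions, *Ctse* at -3.03 ± 1.48 (unadjusted *p*-value 0.0738) and -0.79 without WT3 and HET3, *Ctss* at -1.68 ± 0.94 (unadjusted *p*-value 0.111) and 0.47 without them, and *Ctsf* and *Ctso* above 2. *Ctsf* (ENSMUSG00000083282, chr19:4855130-4860918, plus strand), a cysteine protease, was at 50.4, 30.3 and 2.92 CPM in WT, 13.4, 9.64 and 2.31 CPM in HET, and 38.5 and 25.1 CPM in KO. The KO libraries were within the WT range and above every HET library. Its log2 fold change was 2.68 ± 0.69 (unadjusted *p*-value 0.00435, adjusted 0.148), 1.69 without WT3 and HET3, 0.81 without sex in the model and -0.34 against WT1 and WT2. *Ctso* (ENSMUSG00000028015, chr3:81932601-81956725, plus strand), another cysteine protease, was at 116, 108 and 12.5 CPM in WT, 33.7, 25.3 and 13.0 CPM in HET, and 97.7 and 42.8 CPM in KO. For this gene too KO lay between the WT extremes, and the log2 fold change of 2.05 ± 0.57 (unadjusted *p*-value 0.00633, adjusted 0.148) became 1.44 without WT3 and HET3 and -0.67 against WT1 and WT2. These were the only genes of the set that DESeq2 with apeglm called, at shrunken values of 2.26 and 1.65 on the log2 scale and adjusted *p*-values of 0.00724 and 0.0158. With all libraries, the 2 genes were also the most different of the set between male and female libraries, with log2 fold changes of 2.66 ± 0.65 and 2.34 ± 0.54 (edgeR adjusted *p*-value 0.0895 for both). These values are measured against the same WT3, HET2 and HET3 libraries as those of KO. Without WT3 and HET3, where HET2 is the single female reference library, they were 1.67 and 1.73, below *Ctss* (2.18), *Ctsh* (1.86) and *Tfeb* (1.78).

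*Ctsb*, among the most abundant cathepsins, was at 467, 470 and 756 CPM in WT, 561, 451 and 502 CPM in HET, and 322 and 426 CPM in KO. Both KO libraries were below all 6 others (log2 fold change -0.61 ± 0.25, unadjusted *p*-value 0.0417, adjusted 0.186), and the difference was -0.30 without WT3 and HET3 and -0.33 against WT1 and WT2. *Ctsb* kept its sign, with log2 fold changes between -1.01 and -0.23, under all alternatives run. So did other genes of the set, among them *Lamp1* (-0.57 to -0.061), *Atp6v0e* (-0.60 to -0.065) and *Gusb* (0.0078 to 0.61). *Ctsz*, a carboxypeptidase, was at 141, 136 and 228 CPM in WT, 174, 193 and 234 CPM in HET, and 126 and 177 CPM in KO (log2 fold change -0.53 ± 0.20, unadjusted *p*-value 0.0281, -0.38 without WT3 and HET3 and 0.13 against WT1 and WT2), with KO2 inside the range of the others. Per kilobase *Ctsz* was the first cathepsin in every library, at 23.7% to 36.4% of the summed level of the class. *Ctse*, an aspartic protease known from blood and gastric cells, was at 17.7, 26.1 and 31.3 CPM in WT, 217, 28.2 and 349 CPM in HET, and 12.5 and 20.8 CPM in KO. HET1 and HET3 stood far above the other 6 libraries, which did not exceed 31.3 CPM, and their erythroid marker sums were 9136 and 3097 CPM, against 3861 CPM in HET2, where *Ctse* was at 28.2 CPM. *Ctss*, a protease of antigen-presenting cells, was highest in WT3 (27.8 CPM), the library with the highest macrophage marker sum (340 CPM), and lowest in KO1 (1.86 CPM), the library with the lowest (14.6 CPM). *Ctsa*, *Ctsc*, *Ctsd*, *Ctsh* and *Ctsl* had log2 fold changes between -0.13 and 0.34 in KO, with unadjusted *p*-values above 0.48.

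Of the other hydrolases, *Hexa*, whose product degrades the ganglioside GM2, was at 159, 140 and 75.7 CPM in WT, 96.9, 79.4 and 75.3 CPM in HET, and 144 and 97.4 CPM in KO. KO1 lay between WT1 and WT2, and KO2 was next to HET1 (log2 fold change 0.65 ± 0.24, unadjusted *p*-value 0.0241, adjusted 0.162, 0.58 without WT3 and HET3 and -0.30 against WT1 and WT2). *Gusb*, the beta-glucuronidase, was at 229, 218 and 168 CPM in WT, 172, 171 and 200 CPM in HET, and 224 and 226 CPM in KO (log2 fold change 0.32 ± 0.17, unadjusted *p*-value 0.0922). *Psap*, *Gla* and *Gaa* had log2 fold changes of 0.15, -0.57 and 0.01 with adjusted *p*-values of 0.722, 0.30 and 0.995.

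**Figure D4:**
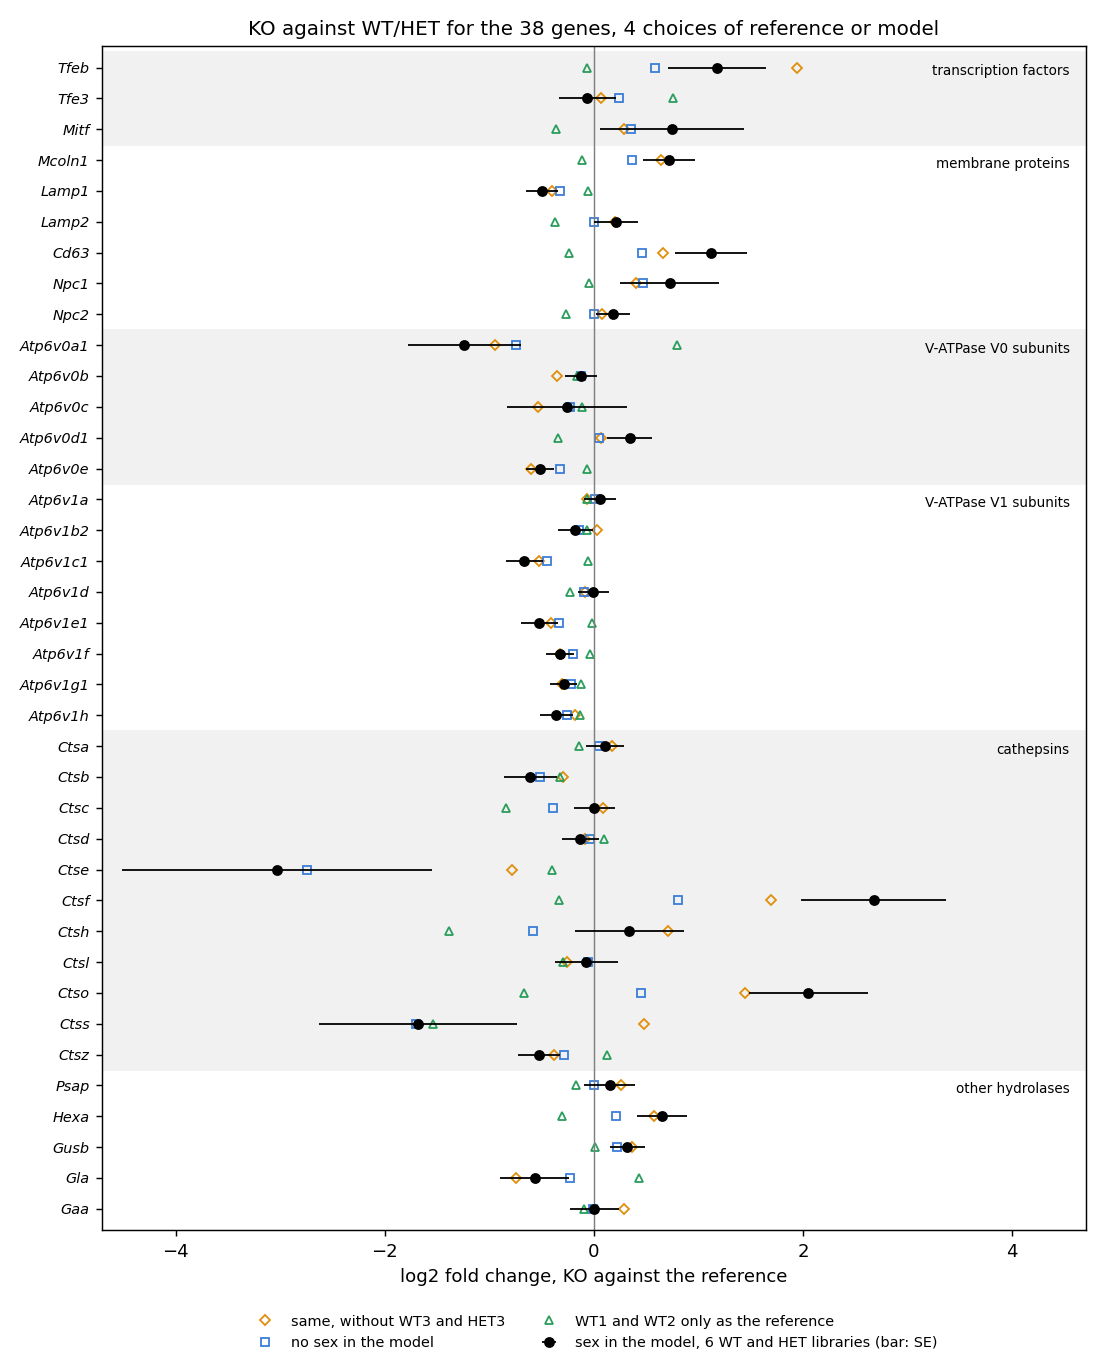
Log2 fold change in KO (x axis) of the 38 genes (y axis) with sex in the model and all 6 WT and HET libraries as the reference (black, bars are the SE), without WT3 and HET3 (orange), without sex in the model (blue), and against WT1 and WT2 only (green). For *Tfeb* the values are 1.18, 1.94, 0.58 and -0.07, and for *Atp6v0e* they are -0.52, -0.60, -0.33 and -0.07.

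In HET against WT, 0 of the 38 genes passed the test (edgeR, 0.0% of 20585 genes). DESeq2 called 0, against 0.311% of all genes with the Wald test and 0.0777% with apeglm. At an unadjusted *p*-value under 0.05, 2 genes were higher and 2 lower, against 1.8% and 1.83% of all genes (3.63% in either direction). By position, the 3 HET libraries were all above the 3 WT libraries for 1 of the 38 genes, *Gla*, and all below them for 3 (*Tfeb*, *Lamp2*, *Ctsa*), against 4.2% and 4.85% of all genes. With scaling by library size only these were *Gla* above and *Atp6v1f* and *Ctsa* below, against 3.3% and 5.71%. The higher genes were *Ctse* (log2 fold change 2.95 ± 0.85, unadjusted *p*-value 0.0121) and *Gla*, the alpha-galactosidase (0.68 ± 0.23, unadjusted *p*-value 0.0245). The lower genes were *Ctsh* (-1.10 ± 0.33, unadjusted *p*-value 0.0136) and *Ctsc* (-0.38 ± 0.15, unadjusted *p*-value 0.0381). All had an adjusted *p*-value of 0.931. With the replicate number as a block, *Ctse* was higher (3.55) and *Cd63* and *Ctsl* were lower at that threshold, against 0.821% and 4.39% of all genes. *Gla*, *Ctsh* and *Ctsc* no longer passed it. Leaving out WT3 and HET3, with HET2 taken up by the sex term, compares HET1 with WT1 and WT2. There, 6 of the 38 genes were called, against 9.6% of all genes. The genes called higher in HET1 were *Ctse* (3.31) and *Atp6v0a1* (1.68), and those called lower were *Mitf* (-1.98), *Ctso* (-1.73), *Ctsf* (-1.59) and *Npc1* (-1.25). These are values of a single HET library, whose spread was not measured: it was assumed to be that of WT1 and WT2, which alone give the residual, with the prior that edgeR takes over genes.

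In male against female libraries, with genotype in the model, 0 of the 38 genes were called (edgeR) against 0.0194% of all genes, and 10 were higher and 8 lower at an unadjusted *p*-value under 0.05, against 18.9% and 13.6% (32.4% in either direction). Of the 15 genes at that threshold in KO against WT/HET (25.2% of all genes), 12 were also below it here (32.4% of all genes), all with the same sign. The share of all genes below it in both comparisons is not given here. Both coefficients are measured against the same WT3, HET2 and HET3 libraries, so this overlap is no independent result.

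Other genes of the pathway, 104 in lists by function, gave 101 tested genes. In KO against WT/HET 0 of these were called by edgeR and 5 by DESeq2 with apeglm, against 7.1% of all genes by the latter. At an unadjusted *p*-value under 0.05, 21 of the 101 were higher and 9 lower, where 15.7% and 9.48% of all genes were, the shares against which the counts of each list below are to be read. Without WT3 and HET3, 1 was higher and 2 lower, against 5.09% of all genes in either direction. Among 29 other lysosomal hydrolases 8 were higher and 0 lower (15.7% and 9.48% of all genes), and 0 and 0 without WT3 and HET3. *Man2b1*, the lysosomal alpha-mannosidase, was at 255, 197 and 67.6 CPM in WT, 97.1, 77.4 and 67.3 CPM in HET, and 229 and 136 CPM in KO (log2 fold change 1.37 ± 0.37, unadjusted *p*-value 0.00574, 1.21 without WT3 and HET3 and -0.31 against WT1 and WT2), and *Glb1*, the beta-galactosidase, had a log2 fold change of 0.60 ± 0.18 (0.58 without them and -0.028 against WT1 and WT2). For both genes the KO libraries lay inside the WT range and above all HET libraries.

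Among 17 other membrane and sorting proteins 5 were higher and 3 lower (15.7% and 9.48% of all genes), and 0 and 1 without WT3 and HET3. *Laptm5*, a lysosomal protein of blood cells, was at 515, 562 and 114 CPM in WT, 269, 174 and 83.0 CPM in HET, and 524 and 314 CPM in KO (log2 fold change 1.76 ± 0.40, unadjusted *p*-value 0.00198, 1.24 without WT3 and HET3 and -0.36 against WT1 and WT2). *Tmem192* was opposite, at 35.5 to 44.6 CPM in WT1, WT2 and both KO libraries and 55.7 to 81.2 CPM in WT3 and HET (log2 fold change -1.02 ± 0.22, unadjusted *p*-value 0.00155, -0.85 without WT3 and HET3 and -0.13 against WT1 and WT2). Both had an adjusted *p*-value of 0.148. Of the 9 tested genes for further V-ATPase subunits 1 was higher, *Tcirg1* (0.80 ± 0.33, but 1.33 without WT3 and HET3 and -0.25 against WT1 and WT2), and 1 lower, *Atp6v0a4*, which had no reads in KO1, KO2, WT1 and WT2 and at most 0.833 CPM elsewhere. Without WT3 and HET3, 1 of the 9 was higher (*Tcirg1*) and 0 lower.

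Genes that control TFEB at the lysosome gave 3 higher and 2 lower of 21, shares near those of all genes (15.7% and 9.48%), and 0 and 1 without WT3 and HET3. *Slc38a9*, the arginine sensor of mTORC1, was at 42.2, 40.8 and 19.7 CPM in WT, 33.6, 22.7 and 22.3 CPM in HET, and 45.6 and 30.5 CPM in KO (log2 fold change 0.82 ± 0.22, unadjusted *p*-value 0.00611, 0.71 without WT3 and HET3 and -0.12 against WT1 and WT2), KO2 overlapping HET1. *Tsc1*, an inhibitor of mTORC1, was at 14.6, 13.2 and 9.06 CPM in WT, 12.2, 9.03 and 12.9 CPM in HET, and 17.9 and 16.6 CPM in KO, above all 6 others (0.74 ± 0.27, unadjusted *p*-value 0.0232, and 0.90 without WT3 and HET3). Over all alternatives run, its log2 fold change lay between 0.31 and 1.03. Of 25 autophagy genes 4 were higher and 3 lower, again near the shares of all genes (15.7% and 9.48%), and 0 and 0 without WT3 and HET3. *Ulk1*, the kinase that starts autophagy, had a log2 fold change of 0.97 ± 0.23 and *Vps18*, which tethers vesicles to lysosomes, one of 1.23 ± 0.27 (unadjusted *p*-values 0.00285 and 0.00177, adjusted 0.148 for both). Without WT3 and HET3 *Ulk1* was at 0.76, and against WT1 and WT2 the values were -0.063 for *Ulk1* and 0.0020 for *Vps18*.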

How the data were processed

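The authors deposited raw counts per gene for 8 libraries, made per the methods and the submitters' processing notes with Trim Galore 0.6.6, STAR 2.7.8 and GRCm38, keeping uniquely mapped reads. The strand column counted is not given in the sources used here, and exons of 10 of the 38 genes overlap a gene on the other strand and those of 2 a gene on the same strand, so reads there are uncertain. A deposited table of normalized, sex-corrected log2 values was not used. Genes with at least 10 reads over the libraries were scaled by TMM. Tests used edgeR 4.0.16 (quasi-likelihood F-test, legacy form, R 4.3.3), with sex and genotype in the model, WT and HET pooled, and Benjamini-Hochberg adjustment over all genes tested. DESeq2 1.42.0 with apeglm 1.24.0 was the alternative. Single genes were tested by exact two-sided permutation of log2 CPM (prior count 2) over 28 choices of libraries.

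The genes, the lists and the tests were chosen with earlier results of these data known. Genes described one by one were the transcription factors, up to 14 genes by *p*-value or with KO beyond all other libraries, the 2 most abundant per kilobase of a class and, of each other list, those with the smallest *p*-values; others were added after their values were seen. Levels per kilobase use exon lengths of GENCODE M21 (GRCm38), and promoters come from RefSeq (GRCm38.p6). Same-numbered WT and HET libraries deviated together over genes (correlations 0.293, 0.198 and 0.590, the last for WT3 and HET3). The number in the titles was therefore taken to pair them in HET against WT, although WT2 correlated more with HET1 (0.403). The number was not taken to pair KO. KO1 correlated with WT1 and HET1 at 0.278 and 0.244, and KO2 with WT2 and HET2 at -0.346 and -0.124. Deviations were taken from the group mean, so with 2 KO libraries KO1 and KO2 mirror each other. These correlations therefore cannot decide whether KO was paired. The counts of 2 libraries of a group always differed by more than sampling noise.
Alternatives were DESeq2, RLE or library-size scaling, other filters, no sex term, a replicate block, other references and each library left out. The fits without WT3 and HET3 and against male WT only, the library-size scaling of levels and the interaction of HET with sex were added after the data were seen.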

Additional observations from a re-analysis of the deposited data

How the results depend on the processing

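Of the 38 genes, the fold change in KO had the other sign for 22 with male WT only, 7 with library size only, 5 with no sex covariate, 5 with WT only, 4 with the replicate block, 4 without WT3 and HET3 and 0 to 3 with the other tools, filters and references, and for 0 to 5 with a library left out. In KO against WT/HET, where 0 of the 38 genes were called and 6 were higher and 9 lower at an unadjusted *p*-value under 0.05, the calls were 3 with the DESeq2 Wald test (8.85% of all genes), 2 with apeglm (7.1%), 3 with no filter on low counts (3.51%) and 1 with WT only as the reference (3.22%). The lower genes were 1 with scaling by library size only (4.64%), 5 with at least 10 reads in every library (14.2%) and 4 with WT only as the reference (7.22%), and no sex covariate gave 0 higher and 0 lower (1.08% and 0.922%). Without WT3 and HET3 it was 1 higher and 1 lower (4.07% and 1.02%), and with male WT only 0 higher and 2 lower (1.43% and 1.98%). Scaling by library size only moved the median of all genes from 0.13 to 0.41. In HET against WT (2 higher, 2 lower, 0 called), 4 were lower with DESeq2, with and without apeglm (2.63%), 1 was higher with library size only (1.34%), 1 was called with no filter (0.444%), 1 was lower with no sex covariate (3.24%), and 6 were called and 14 lower without WT3 and HET3 (9.6% and 15.6%). In KO against female WT/HET (5 higher, 10 lower), DESeq2 called 4 (9.11%). Without WT3 and HET3 a single reference library, HET2, is left in that comparison, so no count is given. In male against female (10 higher, 8 lower), 3 were higher and 1 lower without WT3 and HET3 (5.31% and 1.2%), and 6 higher and 5 lower in WT and HET only (2205 and 2464 of 20585 genes).

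With the replicate block, 1 gene was higher and 0 lower in KO against WT/HET (1.91% and 0.951% of all genes), 1 higher and 2 lower in HET against WT (0.821% and 4.39%), and 2 higher and 6 lower in KO against female WT/HET (2.96% and 6.64%); the block moved the medians to 0.24 for the transcription factors, 0.10 for the cathepsins, 0.40 for the other hydrolases and -0.57 for V0.

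Other medians moved as follows. All 38 genes were at 0.24 with library size only. The transcription factors were at 0.23 with apeglm, 0.35 with no sex covariate, 0.29 without WT3 and HET3 and -0.070 with male WT only. The membrane proteins were at 0.18 with no sex covariate, 0.25 with apeglm, 0.30 without WT3 and HET3, 0.75 with library size only and -0.18 with male WT only. The V0 subunits were at -0.54 without WT3 and HET3, -0.14 with apeglm, -0.11 with male WT only and 0.036 with library size only. The V1 subunits were at -0.024 with library size only and -0.068 with male WT only. The cathepsins were at 0.20 with library size only, 0.00217 with at least 10 reads in every library, -0.28 with no sex covariate, -0.27 with WT only, -0.00733 with HET only, 0.084 without WT3 and HET3 and -0.34 with male WT only. The other hydrolases were at 0.42 with library size only and -0.094 with male WT only. The genes that male WT only turned included *Tfeb* (to -0.070), *Mitf* (to -0.37), *Mcoln1* (to -0.12), *Cd63* (to -0.24), *Atp6v0a1* (to 0.79), *Ctsf* (to -0.34), *Ctso* (to -0.67), *Ctsz* (to 0.13), *Hexa* (to -0.30), *Npc2* (to -0.27), *Ulk1* (to -0.063), *Slc38a9* (to -0.12), *Tcirg1* (to -0.25), *Man2b1* (to -0.31), *Glb1* (to -0.028) and *Laptm5* (to -0.36). *Tfe3* turned to 0.21 with library size only, 0.0095 with at least 10 reads in every library, 0.24 with no sex covariate, 0.17 with the block, 0.000434 with HET only, 0.067 without WT3 and HET3 and 0.76 with male WT only, *Ctss* to 0.47 without WT3 and HET3, *Ctsh* to -0.59 with no sex covariate, and *Atp6v0b* to 0.16 with library size only and 0.0067 with WT only. The cause of these shifts was not tested.

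Leaving out each library in turn gave 0 to 1 called, 1 to 7 higher and 2 to 11 lower genes in KO against WT/HET (to 3.54% called, 3710 of 20603 genes higher and 12.9% lower). Of the 38 genes, 5 were lower without WT3 (5.26% of all genes) and 4 without HET3 (4.9%). *Ctsf* was called without HET2 (3.61, edgeR adjusted *p*-value 0.04), where 3.54% of all genes were called. The lowest counts of higher and lower genes came without KO1, which leaves a single KO library. It gave 0 to 1 called, 0 to 3 higher and 0 to 8 lower in HET against WT (to 0.657%, 9.54% and 9.04%), 0 to 2 called, 4 to 6 higher and 4 to 10 lower in KO against female WT/HET (to 5.85%, 16.6% and 16.3%), and 0 to 5 called, 5 to 12 higher and 1 to 9 lower in male against female (to 14.9%, 21.2% and 18.2%). The medians ran from 0.17 to 1.18 for the transcription factors, 0.18 (without KO1) to 0.49 for the membrane proteins, -0.53 (without KO1) to -0.087 (without KO2) for V0, -0.18 to 0.00161 for the cathepsins and -0.16 to 0.33 for the other hydrolases, and *Tfe3* from -0.35 to 0.17. Of the 15 genes at an unadjusted *p*-value under 0.05 in KO against WT/HET, 0 changed sign and 4 moved by over 1.5 times, *Hexa* (0.34 to 0.91), *Ctsz* (-0.79 to -0.31), *Ctsb* (-0.82 to -0.36) and *Ctso* (1.33 to 2.52), as did *Slc38a9* (0.50 to 1.08) and *Tcirg1* (0.47 to 1.13) of the other lists. With 2 KO libraries the exact permutation test cannot fall below 0.0714, the value it gave for *Atp6v0e*, *Atp6v1g1*, *Atp6v1h* and *Ctsb*. For *Ctsf* and *Ctso*, the genes that DESeq2 with apeglm called, this test gave 0.357 and 0.429. The HET difference between the sexes was also fitted as an interaction in edgeR. It rests on HET1, the only male HET library, and WT3, the only female WT library, so it cannot decide whether the sexes differed.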
